A study of Mus musculus with 6 samples.

Results

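The genes followed here belong to the cytokine route that ends on STAT3 in astrocytes, and were found by their symbols in the deposited gene table. They are the gp130 family receptor chains Osmr, Il6st and Lifr, the transcription factor Stat3, the feedback inhibitor Socs3, the secreted proteins Lcn2 and Serpina3n, the surface receptor Cd44, and the filament genes Vim and Gfap. These 10 genes were 10 of 45777 genes listed, and all 10 had a count in every sample, as 22337 genes did. Cytokines of the interleukin 6 family act on cells through receptor pairs that share the chain gp130, encoded by Il6st. Bound receptors switch on Janus kinases, which phosphorylate STAT3, and STAT3 moves to the nucleus and drives genes that include its own brake, Socs3. In astrocytes, the star-shaped support cells of the brain, this route is a known driver of the reactive state that follows injury and inflammation, in which intermediate filament and secreted acute-phase genes rise.

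The cells came from male Aldh1l1-CreERT2; Rosa26-tdTomato fl/fl mice on a C57BL/6 background, whose genotype the labels give as WT, and in which tamoxifen (75 mg/kg for 5 days) turned on the red protein tdTomato in cells that use the Aldh1l1 promoter. At 8 weeks of age they received 1 injection of streptozotocin (STZ, 150 mg/kg), which destroys the insulin-producing beta cells and raises blood glucose, or citrate buffer (vehicle), and STZ mice were kept only if their blood glucose passed a set limit. After 21 days the brains were dissociated and red cells were sorted, with 3 mice pooled into each of the 3 vehicle and 3 STZ samples, and their RNA was sequenced. Both groups therefore carried Cre, the reporter and tamoxifen, and each sample is a pool of animals, so the spread between samples is that of pools.

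Total counts ran from 52529048 to 58749115 per sample, so 3 counts equal 0.0511 to 0.0571 CPM (counts scaled to library size). The label of the cells was checked against markers. The astrocyte genes Aldh1l1, Aqp4, Slc1a2, Slc1a3, Gja1 and Aldoc summed to between 20100 and 23900 CPM in the 6 samples, and none of them was near 0. Other cell types were also measured in every sample. Microglial markers summed to 627 to 949 CPM, oligodendrocyte markers to 1030 to 3010 CPM and choroid plexus markers to 5890 to 17400 CPM. Neutrophil markers summed to 187, 187 and 1050 CPM in vehicle samples 1, 2 and 3 and to 1240, 1380 and 590 CPM in STZ samples 1, 2 and 3. Endothelial markers summed to 70.3, 103 and 237 CPM with vehicle and to 418, 317 and 235 CPM with STZ. In bulk samples such as these, fewer cells of a type and less RNA per cell cannot be told apart.

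Upstream sequence was read for the members because they are grouped here by a shared transcription factor. STAT dimers are known to bind the letters TTCNNNGAA, which read the same on both strands, and the windows were the 250 bases before the RefSeq start of each gene (GRCm38.p6, 11 windows for the 10 genes). Only Socs3 held these letters, in 1 of the 11 windows, while 7.02% of all 32851 such windows held them. The narrower form TTCCNGGAA, each match of which is also a match of the first, was in none of the 11 windows and in 0.913% of all windows. The Socs3 match is centred 150 bases before the start used, at chr11:117969512-117969520 on the minus strand, and lies inside the annotated span of the gene, which begins further upstream. It is shown with 10 bases on each side (chr11:117969502-117969530) and the match in capitals, 5′ to 3′.
Socs3: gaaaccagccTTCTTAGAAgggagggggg
The letters TTGCNNAA, part of the site of the C/EBP family, which acts beside STAT3 on acute-phase genes, were searched on both strands. They were in 1 of the 11 windows, that of Lcn2, as TTGCTCAA, and in 9.56% of all windows. Upstream stretches of 3 further genes are printed in lower case since none of the 3 motifs was in them: those of Stat3 and Serpina3n, whose counts did not overlap between the groups, and that of Gfap, whose group means were equal. They are the bases before the outermost annotated start, at chr11:100939595-100939790 (minus strand), chr12:104406458-104406645 (plus strand) and chr11:102897201-102897450 (minus strand), each 5′ to 3′.
Stat3: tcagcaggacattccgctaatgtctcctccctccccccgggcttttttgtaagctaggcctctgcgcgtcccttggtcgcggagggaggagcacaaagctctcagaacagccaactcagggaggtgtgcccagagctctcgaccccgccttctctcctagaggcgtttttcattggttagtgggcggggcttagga
Serpina3n: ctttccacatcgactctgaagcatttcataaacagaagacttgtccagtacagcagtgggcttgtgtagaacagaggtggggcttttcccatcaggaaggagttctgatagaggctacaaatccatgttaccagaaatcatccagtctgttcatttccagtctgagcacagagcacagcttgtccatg
Gfap: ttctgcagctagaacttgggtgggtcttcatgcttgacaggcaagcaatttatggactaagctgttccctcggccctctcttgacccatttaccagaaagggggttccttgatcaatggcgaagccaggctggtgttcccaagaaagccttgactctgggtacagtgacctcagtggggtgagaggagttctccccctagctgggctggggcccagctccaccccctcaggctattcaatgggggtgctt
A match is a description of letters only, and its absence from these short windows says nothing about binding of the factor.

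On the length-scaled FPKM values of the authors, which allow levels of different genes to be compared, Vim, Lcn2, Gfap and Stat3 had the highest means and Osmr the lowest. Means over the 6 samples were 55.0 FPKM for Vim, 54.9 for Lcn2, 25.7 for Gfap and 23.1 for Stat3. They were 12 FPKM for Serpina3n, 8.64 for Il6st, 6.74 for Lifr, 4.26 for Cd44, 3.72 for Socs3 and 0.804 for Osmr. Stat3 was above Serpina3n, Il6st above Lifr, Lifr above Cd44, and Socs3 above Osmr in 6 of 6 samples. Other neighbours in this order changed places between samples. Vim was above Lcn2 in 3 samples, Lcn2 above Gfap in 4, Gfap above Stat3 in 3, Serpina3n above Il6st in 4 and Cd44 above Socs3 in 5. Differences in level between genes were not tested. Osmr was the least abundant of the 3 receptor chains, with 145 to 373 counts per sample against 2350 to 3187 for Il6st and 3137 to 4358 for Lifr.

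The comparison asked whether this route and its targets differed in astrocytes after 3 weeks of high glucose. A gene was called where its fold change exceeded 1.5 with an adjusted p under 0.05. The quasi-likelihood test of edgeR called 0 of the 10 members and 5 of the 22337 genes tested (0.0224%). DESeq2 called 1 member, Serpina3n, and 234 of 18437 genes (1.27%). At an unadjusted edgeR p under 0.05, 3 members were higher with STZ, namely Stat3, Serpina3n and Vim, against 5.63% of all genes, and 0 were lower, against 5.65% of all genes. The 3 STZ samples lay above the 3 vehicle samples for 2 members, Stat3 and Serpina3n, where 8.64% of all genes did so, and below them for 0 members, where 9.85% of all genes did so. The log2 fold change was positive in 8 members and negative in 2, with a median of 0.32, and its median over all genes tested was 0.01. It was positive in 11600 and negative in 10737 of the 22337 genes tested. All values below are normalized CPM, and fold changes are STZ over vehicle. With 3 samples against 3, an exact permutation test of a single gene cannot give a p below 0.1.

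**Figure D1:**
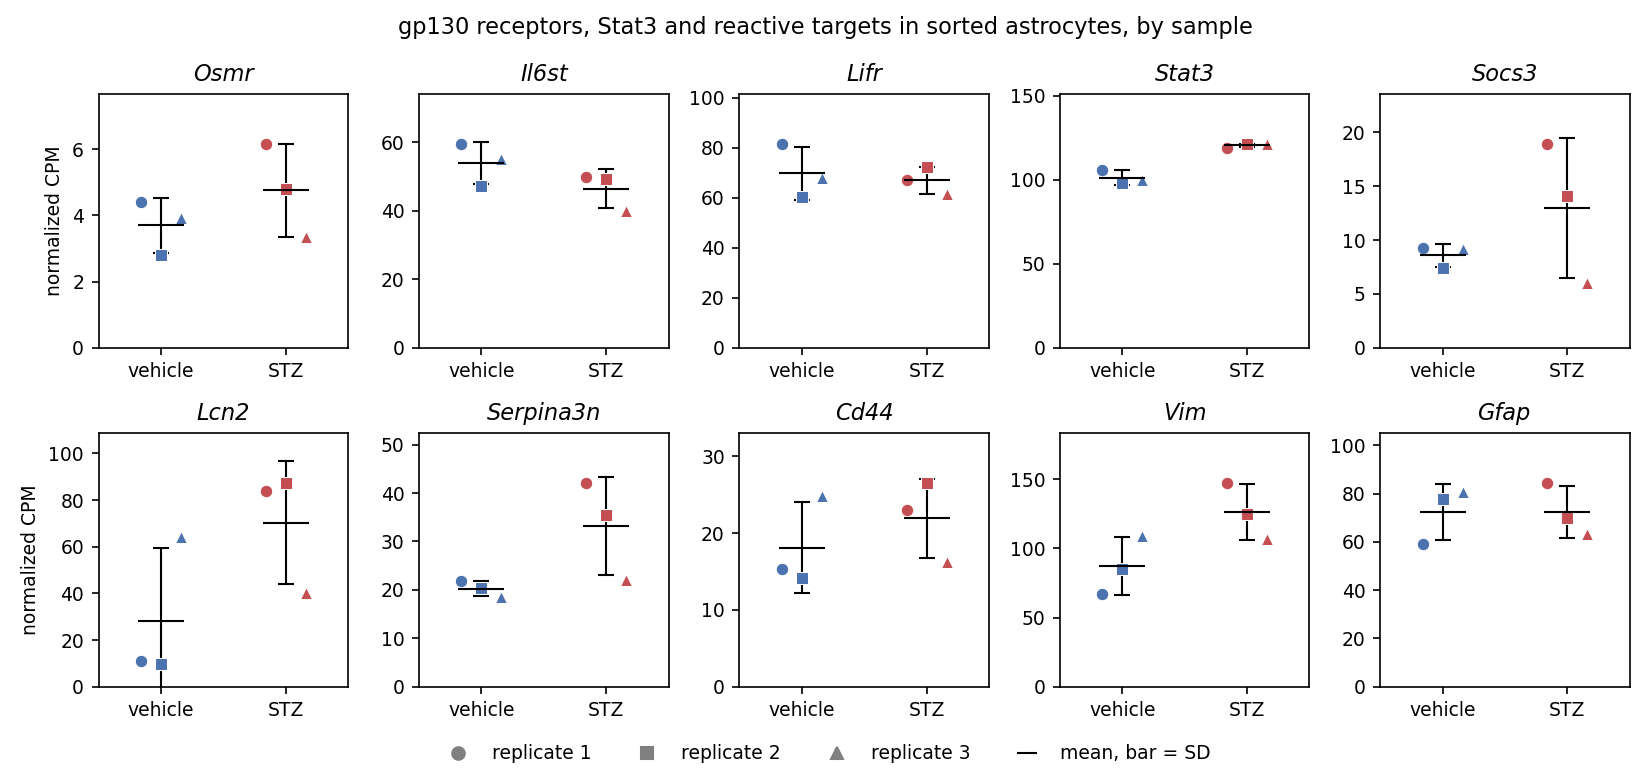
Normalized CPM (y axis, from 0) of each of the 10 genes in the 3 vehicle (blue) and 3 STZ (red) samples, with the group mean and SD in black. The symbol is the replicate number, by which the labels do not pair the samples. Stat3 (97.7 to 106 against 119 to 121) and Serpina3n (18.6 to 21.8 against 22.1 to 42.0) are the only panels of the 10 without overlap, and vehicle sample 3 of Lcn2 (64.3) stands among the STZ samples.

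The receptor chains showed no common direction. Osmr, the oncostatin M receptor chain (NCBI gene 18414, chromosome 15, 6813568 to 6874968), had 4.42, 2.79 and 3.91 CPM with vehicle and 6.15, 4.81 and 3.34 CPM with STZ. STZ samples 1 and 2 were above every vehicle sample and STZ sample 3 fell among them, and the log2 fold change was 0.36 (95% interval -0.30 to 1.02, edgeR adjusted p = 0.653). Il6st, the shared gp130 chain (NCBI gene 16195, chromosome 13, 112464070 to 112506860), had 59.4, 47.2 and 55.2 CPM with vehicle and 50.0, 49.4 and 40.0 CPM with STZ. The lowest of the 6 was STZ sample 3 and the groups overlapped, with a log2 fold change of -0.21 (95% interval -0.49 to 0.06, edgeR adjusted p = 0.535). Lifr, which pairs with gp130 for leukaemia inhibitory factor and ciliary neurotrophic factor (NCBI gene 16880, chromosome 15, 7090610 to 7197489), had 81.3, 60.4 and 67.8 CPM with vehicle and 66.9, 72.2 and 61.6 CPM with STZ. Its STZ samples lay within the vehicle range, and the log2 fold change was -0.06 (95% interval -0.34 to 0.21, edgeR adjusted p = 0.874). Il6st and Lifr moved with markers of the sorted cells and of other cells. Across the 6 samples, which share library preparation and depth, Pearson's r of Il6st with the summed markers of border macrophages (Mrc1, Pf4, Cd163, Lyve1, Ms4a7) was 0.96 and with those of astrocytes 0.82, and r of Lifr with those of astrocytes was 0.94 and of microglia 0.92. The border macrophage markers summed to 21.1 to 37.4 CPM with vehicle and 13.0 to 20.2 CPM with STZ, 5 of 5 had a negative log2 fold change and 3 of 5 were lower at an unadjusted p under 0.05. None of the 5 was at 0, and their part in the Il6st values was not tested.

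Stat3 had the smallest spread of the members. It is the transcription factor of the route (NCBI gene 20848, chromosome 11, 100886806 to 100939594). It had 106, 97.7 and 100 CPM with vehicle and 119, 121 and 121 CPM with STZ. All 3 STZ samples were above all 3 vehicle samples, and within a group the highest sample was 1.08 times the lowest with vehicle and 1.02 times with STZ. The means were 101 ± 4.28 and 120 ± 1.33 CPM (SD, n = 3), a log2 fold change of 0.25 with a standard error of 0.0636 (95% interval 0.10 to 0.40), or 1.19-fold. This difference did not pass the threshold over all genes (edgeR adjusted p = 0.288, DESeq2 adjusted p = 0.189) and is below the 1.5-fold limit. The exact permutation test of Stat3 gave p = 0.1, the smallest possible, and the unadjusted edgeR p was 0.00504. Its unadjusted p was under 0.05 in 16 of 16 alternative fits, and the log2 fold change ran from 0.21 to 0.28 when each sample was left out in turn. All these fits draw on the same 6 samples, so they are not independent. The lowest adjusted p of Stat3 among them was the 0.189 of DESeq2. Gm46295 overlaps Stat3 in the annotation, and without a stated use of strand, reads from the stretch they share cannot be told apart. Pearson's r of Stat3 over the 6 samples was 0.64 with the endothelial, 0.62 with the pericyte and smooth muscle and 0.57 with the neutrophil markers. With the border macrophage markers it was -0.63 and with the astrocyte markers -0.23. The part of any of these cell types in the Stat3 values was not tested.

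Socs3, the feedback inhibitor that binds gp130 and the Janus kinases and is itself a STAT3 target (NCBI gene 12702, chromosome 11, 117966079 to 117970336), varied more among the STZ samples than between the groups. It had 9.23, 7.38 and 9.15 CPM with vehicle and 18.9, 14.1 and 6.03 CPM with STZ. STZ samples 1 and 2 were above all vehicle samples and STZ sample 3 was the lowest of all 6. The coefficient of variation was 12.2% with vehicle and 50.0% with STZ. The log2 fold change was 0.60 (95% interval -0.26 to 1.46, edgeR adjusted p = 0.564), and it was 0.94 without STZ sample 3 and 0.23 without STZ sample 1.

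The secreted targets differed more in size. Serpina3n, a serine protease inhibitor that is a widely used mark of reactive astrocytes (NCBI gene 20716, chromosome 12, 104406646 to 104414334), had 21.8, 20.3 and 18.6 CPM with vehicle and 42.0, 35.4 and 22.1 CPM with STZ. The vehicle samples were close together, STZ samples 1 and 2 were well above them, and STZ sample 3 was just above vehicle sample 1. The means were 20.2 ± 1.59 and 33.2 ± 10.2 CPM (SD, n = 3), a log2 fold change of 0.71 with a standard error of 0.216 (95% interval 0.21 to 1.22), or 1.64-fold. The edgeR adjusted p of Serpina3n was 0.326 (unadjusted p = 0.0117), the DESeq2 adjusted p was 0.0468, and the exact permutation p was 0.1, the smallest possible. On the deposited TPM scale its groups did overlap, since vehicle sample 1 had 23.0 TPM and STZ sample 3 had 22.6 TPM. Serpina3n belongs to a cluster of related genes, so reads may be shared. Of 10 paralogs, 9 had 0 counts in at least 1 sample and Serpina3g had 0.317 to 1.13 CPM, and summing the paralogs into Serpina3n gave a log2 fold change of 0.72. Pearson's r of Serpina3n over the 6 samples was 0.77 with the pericyte and smooth muscle, 0.67 with the endothelial and 0.59 with the neutrophil markers. With the astrocyte markers it was -0.13. The part of any of these cell types in the Serpina3n values was not tested.

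Lcn2, which encodes the iron-carrier-binding protein lipocalin 2 made by neutrophils and by reactive astrocytes (NCBI gene 16819, chromosome 2, 32384637 to 32387739), had 11.2, 9.54 and 64.3 CPM with vehicle and 83.7, 87.2 and 40.1 CPM with STZ. Vehicle sample 3 was above STZ sample 3, so the groups overlapped, and the highest of the 6 samples was 9.14 times the lowest. The log2 fold change was 1.31 (95% interval -0.36 to 2.98, edgeR adjusted p = 0.528). It was 2.75 without vehicle sample 3 (edgeR adjusted p = 0.146) and 0.89 without vehicle sample 2. The level of Lcn2 moved with several marker lists, with Pearson's r over the 6 samples of 1.0 (rounded) for neutrophil, 0.95 for endothelial, 0.93 for pericyte and smooth muscle and 0.88 for ependymal markers. Divided by the sum of the 11 markers, Lcn2 was 5.98%, 5.11% and 6.10% in the vehicle samples and 6.74%, 6.34% and 6.79% in the STZ samples, so the highest ratio was 1.33 times the lowest. Divided by S100a8, a calprotectin subunit abundant in neutrophils, it was 44.9%, 33.3% and 37.8% with vehicle and 38.1%, 35.8% and 36.3% with STZ. All 11 neutrophil markers had a positive log2 fold change (median 1.24) and 1 of them, Elane, singled out after its value was seen, was at an unadjusted p under 0.05. The defining markers were not at 0 in any sample: Ly6g had 0.727 to 6.49 CPM and Ngp 46.1 to 365 CPM. The part of any of these cell types in the Lcn2 values was not tested.

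**Figure D2:**
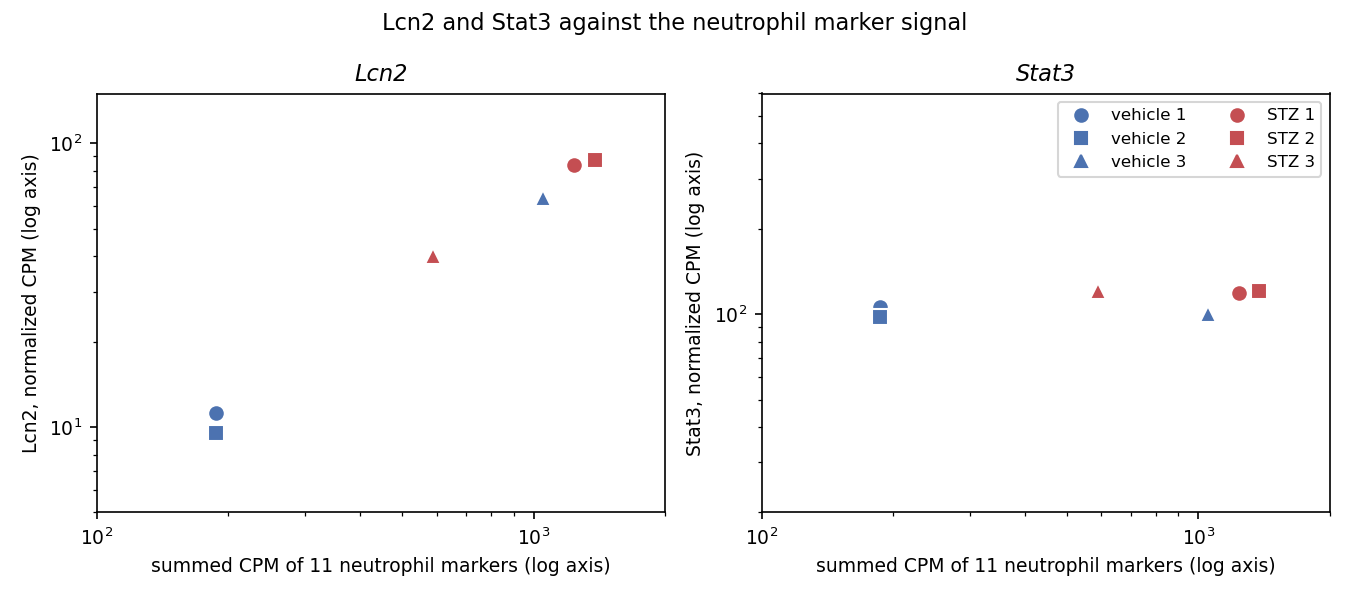
Normalized CPM of Lcn2 (left) and Stat3 (right) against the summed CPM of 11 neutrophil markers, 1 point per sample, both axes on a log scale that spans the same number of decades on y in both panels. The Lcn2 points lie along a line, from 9.54 CPM in vehicle sample 2 to 87.2 CPM in STZ sample 2. Stat3 stays between 97.7 and 121 CPM as the markers go from 187 to 1380 CPM, with Pearson's r of 0.57.

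Of the surface and filament targets, Vim differed most. Vim, the intermediate filament protein vimentin of astrocytes, endothelial and other mesenchymal cells (NCBI gene 22352, chromosome 2, 13574311 to 13582826), had 67.2, 85.2 and 109 CPM with vehicle and 147, 125 and 107 CPM with STZ. Vehicle sample 3 was above STZ sample 3 and the other STZ samples were the highest. The means were 87.3 ± 21.2 and 126 ± 20.4 CPM (SD, n = 3), a log2 fold change of 0.53 (95% interval 0.10 to 0.97), or 1.45-fold (edgeR adjusted p = 0.375). Its order over the samples was close to that of the endothelial markers, with Pearson's r of 0.99 over the 6 samples. Pearson's r of Vim was 0.97 with the ependymal and 0.91 with the neutrophil markers. Of 11 endothelial markers, 10 were higher with STZ at an unadjusted p under 0.05 and 6 did not overlap between the groups. Cldn5, whose groups did overlap, ran from 14.3 to 90.7 CPM. The part of any of these cell types in the Vim values was not tested.

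Cd44, the hyaluronan receptor of leukocytes and reactive astrocytes (NCBI gene 12505, chromosome 2, 102811141 to 102901669), had 15.4, 14.1 and 24.9 CPM with vehicle and 23.0, 26.5 and 16.3 CPM with STZ. The groups overlapped, with vehicle sample 3 second highest, and the log2 fold change was 0.28 (95% interval -0.32 to 0.87, edgeR adjusted p = 0.708). Pearson's r of Cd44 was 0.93 with the neutrophil and 0.92 with the fibroblast markers. It was 0.81 with the pericyte and smooth muscle markers and 0.79 with both the endothelial and the ependymal markers. The part of any of these cell types in the Cd44 values was not tested. Gm23731 overlaps Cd44 in the annotation. Gfap, the astrocyte filament most used as a stain for reactive astrocytes (NCBI gene 14580, chromosome 11, 102887336 to 102897200), had 59.3, 77.6 and 80.5 CPM with vehicle and 84.3, 70.0 and 63.2 CPM with STZ. The means were 72.5 ± 11.5 and 72.5 ± 10.8 CPM (SD, n = 3), and the 95% interval of the log2 fold change ran from -0.34 to 0.34. A difference in Gfap of up to that size in either direction is within this interval.

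**Figure D3:**
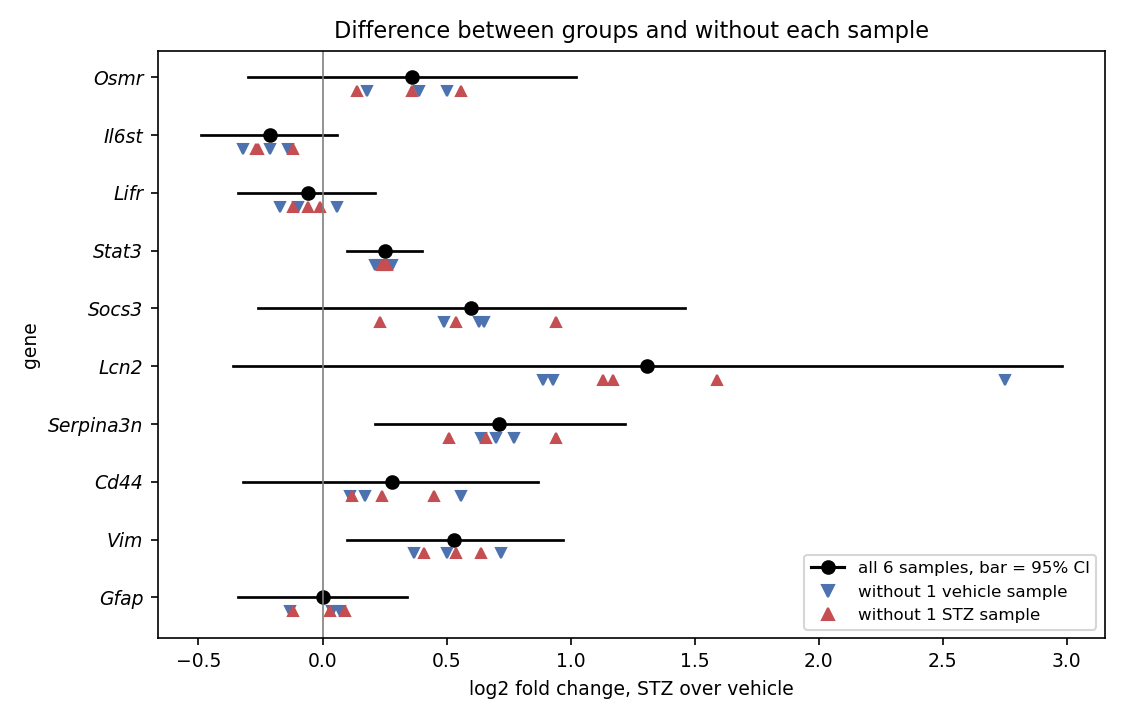
Log2 fold change of STZ over vehicle (x axis) for each gene with all 6 samples (black point, bar = 95% confidence interval) and with 1 vehicle (blue) or 1 STZ (red) sample left out. The intervals of Stat3 (0.10 to 0.40), Serpina3n (0.21 to 1.22) and Vim (0.10 to 0.97) lie above 0, and Lcn2 moves most, from 0.89 to 2.75.

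The members split the samples in a way that was not only by group. STZ sample 1 had the highest value for 5 members, STZ sample 2 for 2, vehicle sample 1 for 2 and STZ sample 3 for 1, while vehicle sample 2 had the lowest for 5. STZ samples 1 and 2 were each above every vehicle sample for 7 members, and STZ sample 3 for 2. Vehicle sample 1 was itself above the other vehicle samples for 6 members, vehicle sample 3 for 4 and vehicle sample 2 for 0. The share of all genes with such an order was not counted. As a description over 6 samples that share preparation and depth, Pearson's r was 0.91 between Osmr and Socs3, 0.88 between Socs3 and Serpina3n, and 0.81 between Osmr and Serpina3n. Lcn2 had r of 0.91 with Cd44 and 0.91 with Vim, and Il6st and Lifr had 0.79. Stat3 and Serpina3n had 0.72, and Il6st and Stat3 had -0.47. Among 16252 genes with a mean of at least 1 CPM, those closest to Lcn2 were Wfdc21 (r = 0.9973), Ifitm6 (0.9970) and S100a8 (0.9953). With 6 samples a high r is common, and 522 genes had r over 0.9 with Lcn2 and 776 with Vim. The closest to Stat3 were Ndn (0.9894), Swt1 (0.9839) and Nt5c (0.9815), to Serpina3n Gsdme (0.9923), Abcb1b and Agbl3, and to Il6st Pf4 (0.9994), Slc35e1 and Cd38. Those closest to Osmr were F13a1, Gm38882 and Wdr27, to Lifr Crim1, Cplane1 and Abhd1, and to Socs3 Plekha4, Tmc6 and B430010I23Rik. Those closest to Cd44 were Osbpl8, Arhgap9 and Nfam1, to Vim Ushbp1, Hc and Ttc29, and to Gfap 1700010I14Rik, LOC115487739 and Slc12a7.

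**Figure D4:**
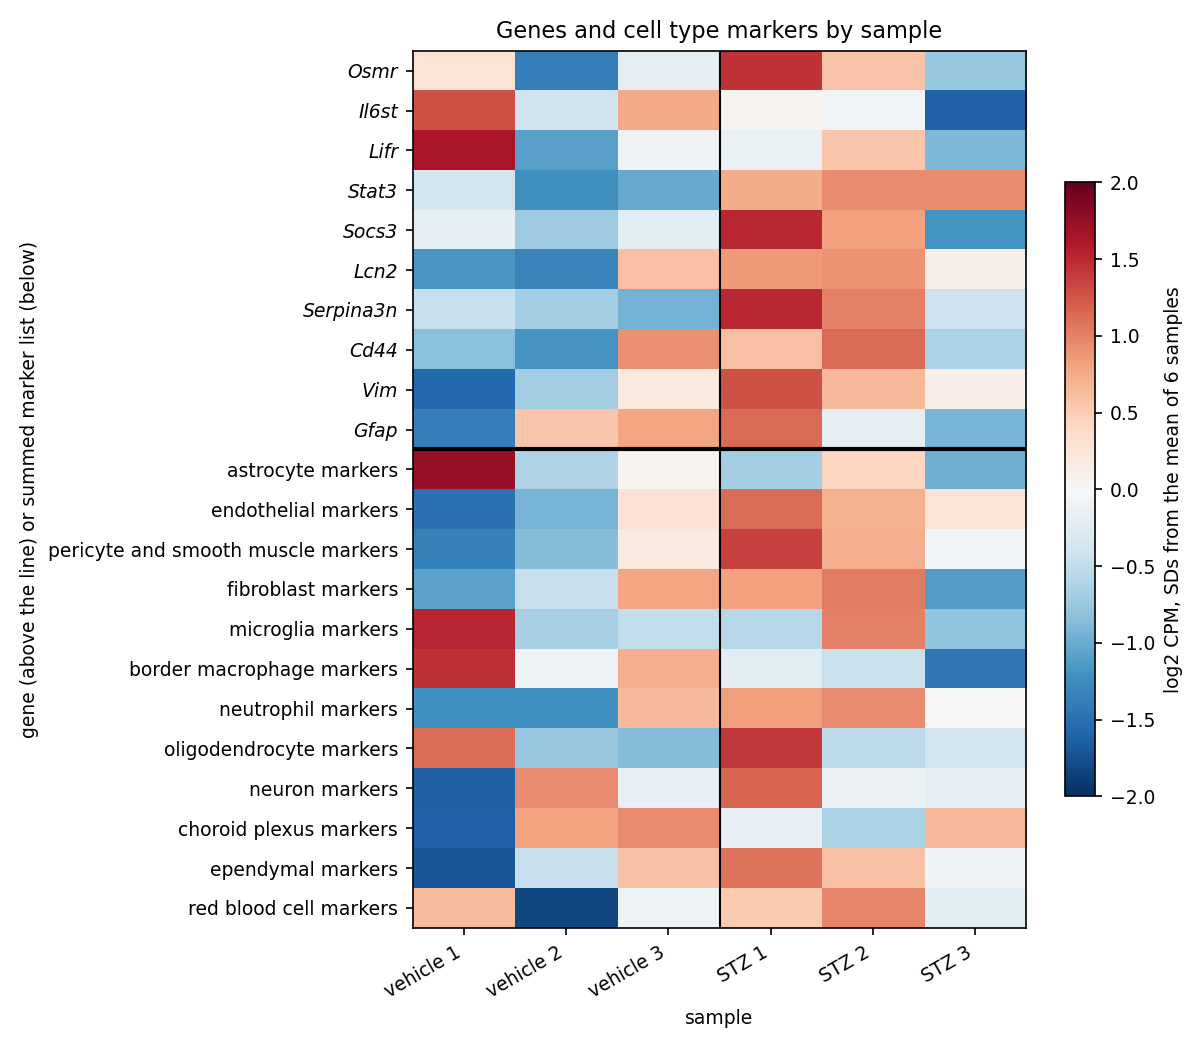
Log2 CPM of the 10 genes (above the line) and of the summed markers of 12 cell types (below it) in each sample, in SDs from the mean of the 6 samples (red high, blue low). Stat3 is red in all 3 STZ samples and blue in all 3 vehicle samples, the rows of Lcn2 and of the neutrophil markers have nearly the same colours, as do those of Vim and of the endothelial markers.

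The ligand with the highest mean level on the FPKM scale was the cardiotrophin gene Ctf1, with 10.5 FPKM, and Osm had 4.55 FPKM. Of 11 gp130 cytokine ligand genes, 9 had a count in every sample, 2 were higher with STZ at an unadjusted p under 0.05, 0 were lower and 0 were called. Il27, a subunit of interleukin 27, had 0.0175 to 0.135 CPM with vehicle and 0.181 to 0.670 CPM with STZ, on 1 to 39 counts per sample (log2 fold change 1.97, edgeR adjusted p = 0.402). Osm, the oncostatin M that binds Osmr, is made mainly by myeloid cells and had 3.67, 4.07 and 17.0 CPM with vehicle and 15.8, 9.04 and 5.63 CPM with STZ. Vehicle sample 3 was the highest for Osm, the groups overlapped, and the log2 fold change was 0.30 (edgeR adjusted p = 0.888). Further log2 fold changes of ligands were 0.58 for Ebi3, 0.52 for Clcf1, 0.08 for Cntf, 0.02 for Ctf1, -0.30 for Lif and -0.31 for Il11, with unadjusted edgeR p from 0.150 to 0.910. Il6, the founding cytokine of the family, had 0 counts in STZ sample 3 and 0.0385 to 0.224 CPM in the other 5 samples, and Ctf2 had 0 counts in 5 samples.

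The 5 other gp130 family receptor chains had a median log2 fold change of -0.21, with 4 negative and 0 called. Cntfr, the ciliary neurotrophic factor receptor of astrocytes and neurons, had 92.0, 91.8 and 99.7 CPM with vehicle and 74.3, 82.3 and 88.0 CPM with STZ. All its STZ samples were below all vehicle samples (log2 fold change -0.21, edgeR adjusted p = 0.407). The log2 fold change was -0.14 for Il11ra1, -0.70 for Il31ra, -0.34 for Il27ra and 0.04 for Il6ra, none of them at an unadjusted p under 0.05. On the FPKM scale Il11ra1 (57.3) and Cntfr (38.1) were above Il6ra (1.09). Of 6 tested receptors outside the family that also signal to STAT3, 0 were higher and 1 was lower at an unadjusted p under 0.05, the epidermal growth factor receptor Egfr (log2 fold change -0.26, edgeR adjusted p = 0.426). Of the other members of that list, the leptin receptor Lepr had -0.56, the granulocyte colony-stimulating factor receptor Csf3r 0.50 and Il21r -0.28.

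Of the 10 Janus kinases and other STATs, 0 were at an unadjusted p under 0.05 in either direction. Jak1 had a log2 fold change of -0.18, Jak3 0.60, Stat5a -0.16 and Stat2 -0.11, and the median over all 10 genes of the list was 0.00. Of 13 feedback inhibitors other than Socs3, 2 were higher at an unadjusted p under 0.05 and 0 were lower. These were the phosphatase gene Ptpn1 (0.29, edgeR adjusted p = 0.322) and the STAT inhibitor gene Pias1 (0.19, edgeR adjusted p = 0.372). Both lay higher with STZ without overlap. The next by p were Socs7 (-0.27), whose STZ samples all lay below the vehicle samples, and Ptpn6 (0.33).

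Among 20 other genes known as STAT3 targets, 18 had a positive log2 fold change, against 11600 of all 22337 genes tested. Of the 20, 6 were higher and 1 was lower at an unadjusted p under 0.05, and 0 were called by edgeR. Their median log2 fold change was 0.32. The smallest p was that of Cebpd, which encodes a C/EBP factor of acute-phase responses. It had 19.5, 19.1 and 26.8 CPM with vehicle and 39.2, 42.6 and 38.5 CPM with STZ. Its groups were wide apart, including STZ sample 3, with a log2 fold change of 0.88 and a standard error of 0.140 (edgeR adjusted p = 0.163, DESeq2 adjusted p = 1.23e-05). Pim3, a survival kinase gene, had 63.0, 48.0 and 54.4 CPM with vehicle and 73.7, 74.7 and 84.2 CPM with STZ (log2 fold change 0.49, edgeR adjusted p = 0.250, DESeq2 adjusted p = 0.0266). Vegfa, the vascular growth factor, went the other way, with 356, 359 and 356 CPM with vehicle and 276, 279 and 287 CPM with STZ (log2 fold change -0.35, edgeR adjusted p = 0.189, DESeq2 adjusted p = 0.00537). For Vegfa, too, no sample of one group came near the other. Myc had a log2 fold change of 0.46 (edgeR adjusted p = 0.328), and the other 3 higher genes were Junb (0.65), Fos (0.58) and Zfp36 (0.65), the last named after its value was seen. Fos and Junb are also immediate-early genes that tissue dissociation can induce. In a list of 10 such genes, 4 were higher and 0 lower at an unadjusted p under 0.05, with a median of 0.24: Dusp1 (0.79, edgeR adjusted p = 0.289, DESeq2 adjusted p = 0.00635), Ier2 (0.55), Fos and Junb. Over these 10 genes, 6 log2 fold changes were positive and 4 were negative. The part of dissociation, or of other cell types, in the values of the STAT3 targets was not tested.

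**Figure D5:**
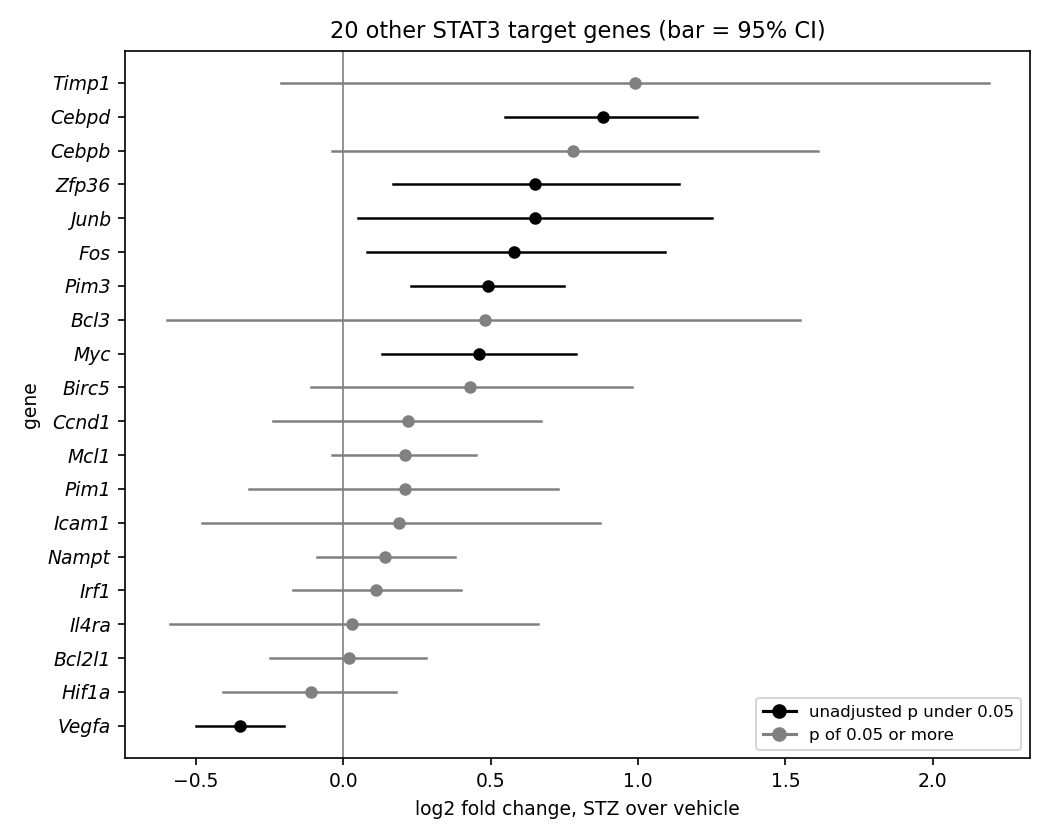
Log2 fold change of STZ over vehicle (x axis) for 20 other STAT3 target genes, with 95% confidence intervals; black marks an unadjusted p under 0.05 and gray the rest. Of the 20 genes, 18 lie above 0, Cebpd (0.88) has the smallest p, and Vegfa (-0.35) is the 1 black point below 0.

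In the acute-phase, pan-reactive astrocyte and intermediate filament and lamina lists, most log2 fold changes were positive and 0 genes were called. Over all 22337 genes tested, 11600 were positive. Of 6 tested acute-phase genes, 3 were higher at an unadjusted p under 0.05, 0 lower and 0 called (median 0.65). Cp, the copper-carrying ferroxidase ceruloplasmin, had 4.51, 6.11 and 9.65 CPM with vehicle and 14.6, 12.9 and 9.06 CPM with STZ (log2 fold change 0.85, edgeR adjusted p = 0.382). A2m, a protease inhibitor, had a log2 fold change of 0.49, the haemoglobin binder Hp had 1.58 and the complement gene C3 0.81. Hp, which neutrophils also make, had 7.03, 14.5 and 40.8 CPM with vehicle and 83.5, 75.5 and 28.3 CPM with STZ, so vehicle sample 3 was above STZ sample 3, as it was for the neutrophil markers. Of 7 other genes in the pan-reactive astrocyte list, 7 were positive, 2 at an unadjusted p under 0.05 (Cp and Steap4, 1.83), with a median of 0.68. S1pr3 had 0.68 and Timp1 0.99 in that list. Of 7 other intermediate filament and lamina genes, 7 were positive and 1, Nes, was at an unadjusted p under 0.05 (log2 fold change 1.03, edgeR adjusted p = 0.425). Nes, the nestin of progenitor, endothelial and reactive cells, had 1.85, 2.68 and 4.85 CPM with vehicle and 9.30, 5.70 and 4.20 CPM with STZ, so STZ sample 3 lay below vehicle sample 3. The log2 fold change was 0.31 for Plec, 0.74 for Des and 0.25 for Synm.

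Of 6 tested partners of lipocalin 2 and CD44, 0 were higher and 1 was lower at an unadjusted p under 0.05, and 0 were called. That gene was Slc22a17, which encodes a lipocalin 2 receptor, with 694, 838 and 823 CPM with vehicle and 682, 568 and 625 CPM with STZ. Its groups did not overlap (log2 fold change -0.33, edgeR adjusted p = 0.350). Mmp9, a gelatinase abundant in neutrophils that binds both proteins, had 12.6, 14.2 and 65.1 CPM with vehicle and 79.9, 63.2 and 29.1 CPM with STZ (log2 fold change 0.90, edgeR adjusted p = 0.626). Vehicle sample 3 of Mmp9 stood among the STZ samples, as it did for Lcn2. The CD44 ligand gene Spp1 had a log2 fold change of 0.73 and the lipocalin receptor gene Lrp2 0.54. The other marker lists bear on the values above as follows. Of 9 pericyte and smooth muscle markers, 4 were higher at an unadjusted p under 0.05, with a sum of 138 to 186 CPM with vehicle and 178 to 234 CPM with STZ, and Pearson's r of this sum with Vim was 0.99. Of 6 astrocyte markers, 2 were lower at an unadjusted p under 0.05 and 0 higher. Fibroblast markers summed to 49.4 to 72.1 CPM over the 6 samples, neuronal markers to 54.2 to 109 CPM, ependymal markers to 65.4 to 223 CPM and red blood cell markers to 4.57 to 17.8 CPM, with 0 genes of these lists, or of the microglial, oligodendrocyte and choroid plexus lists, at an unadjusted p under 0.05. Their part in the member values was not tested.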

How the data were processed

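Sample groups and replicate numbers came from the sample labels. RNA was selected for polyA and made into libraries with a SMART-Seq mRNA kit. Per the submitters' processing notes, the tools were bcl2fastq 2.20.0, Trimmomatic 0.38, HISAT2 2.1.0, SAMtools 1.9 and StringTie 2.1.3b, with the mm10 genome. The annotation and the use of strand are not given in the sources used here. The deposited table gives each gene's read count as a whole number, without normalization. FPKM and TPM values were made by the authors, FPKM per transcript length and mapped reads and TPM scaled to a fixed sum. The step by which the authors removed outlier genes is not described and was not repeated.

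Genes at 0 in any sample were left out, as in the study, and the rest were fitted in edgeR 4.0.16 (R 4.3.3), with TMM factors and the two-sided quasi-likelihood test adjusted by Benjamini-Hochberg over all genes tested. A gene was called at an adjusted p under 0.05 and a fold over 1.5. Log2 CPM used a prior count of 2. Confidence intervals are 95% and come from the fit. Alternatives were DESeq2 1.42.0 (the study's tool), its size factors, 2 other filters, robust fitting, a replicate block, other thresholds, each sample left out, and limma 3.58.1 on log2 TPM with a pseudocount of 1 or 0.1. A covariate of neutrophil or endothelial markers and the overlap of the groups without each sample were added after the data were seen. The code was tested on simulated data. Pools of mice are the replicates, and p-values measure the spread between pools. Floors cover counting error only.

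The members and all lists were chosen with earlier results of these data known. Named were all members, the tested gp130 ligands and receptor chains, up to 4 genes with the smallest p in each other pathway list, and the 3 genes most correlated with each member. A gene that these rules would name is not reported here by name, but is counted in its list. Positions are from RefSeq (GRCm38.p6), where 10 of 10 members matched, and so are the upstream sequences. Python 3.11.15, numpy 2.4.6, pandas 2.3.3 and matplotlib 3.10.9 were used for tables and plots.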

Additional observations from a re-analysis of the deposited data

How the results depend on the processing

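The number of genes called by edgeR over all genes was 5. It was 234 with DESeq2, 0 with limma on log2(TPM + 1) or log2(TPM + 0.1), 10 with robust fitting, 10 at an adjusted p under 0.1, 0 with either marker covariate and 0 to 1 without each sample. Genes at an unadjusted p under 0.05 fell from 2519 to 1045 with the neutrophil and 936 with the endothelial covariate. DESeq2 called 1 of the 10 members and every other alternative called 0. Members at an unadjusted p under 0.05 numbered 1 (Stat3) with either covariate and 2 to 5 without each sample. Members without overlap numbered 1 on TPM, where 3850 of all genes tested did not overlap, against 4129 on CPM. Without each sample such members numbered 2 to 6. With 1 sample fewer, groups separate more easily, and the count over all genes was not made in those runs. The 21 pathway genes at an unadjusted p under 0.05 became 9 to 27 without each sample. Over all genes, the 2519 at that threshold became 1704 to 2802 without each sample.

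Osmr, Stat3, Socs3 and Serpina3n had a positive and Il6st a negative fold change in every alternative run, and Serpina3n passed only with DESeq2 (0.71). The marker covariates follow some members almost exactly (r of 1.0 for Lcn2 with neutrophil and 0.99 for Vim with endothelial markers), so a fold change lost under them adds nothing to that correlation and tests no cause. Directions turned with the endothelial covariate for Lifr (0.03), Lcn2 (-0.35), Cd44 (-0.35), Vim (-0.03) and Gfap (-0.37), and with the neutrophil covariate for Cd44 (-0.25) and Gfap (-0.18). With no filter on low counts Gfap was -0.01. Without each sample Gfap ran from -0.13 to 0.09 and Lifr from -0.17 to 0.06. Among uncalled pathway genes the range without each sample crossed 0 for Il11 (-0.66 to 0.17), Osm (-0.17 to 1.38), Cntf (-0.70 to 0.45), Ctf1 (-0.12 to 0.20), Il6ra (-0.19 to 0.23), Il27ra (-0.74 to 0.73) and Il31ra (-1.08 to 0.45). The cause was not tested.

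In a fit blocked on replicate number 0 genes were called, 2 members (Stat3 and Serpina3n) and 11 pathway genes were at an unadjusted p under 0.05, and Cntf turned to -0.07. Nothing in the labels pairs the samples by number. Deviations from the group mean correlated at -0.184 to -0.101 for same-numbered samples and at -0.020 to 0.158 for different numbers. These values are linked, since the 3 deviations of a group sum to 0 for each gene, so they cannot decide whether samples share a batch. The block changed no other direction. With 3 pools per group the intervals are wide for most members.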
